A study of Mus musculus with 11 samples.

Results

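Open chromatin of alveolar macrophages from healthy lung was compared with that of alveolar macrophages from lung carrying KP tumours for 15 days. The comparison was defined by sample labels and not by measured values: it took the naive peak list and the day 15 peak list, both as deposited and with the naive list limited to as many of its strongest peaks as the shorter day 15 list holds. It covered 8 of the 11 samples of the study, 4 naive and 4 at day 15 by their labels, although the series' design text mentions triplicates, and 25592 peaks, 14731 of them naive. All macrophages came from C57BL/6 mice and were sorted from the lung as tissue-resident macrophages. The naive mice, described as wild type, carried no tumour. The day 15 mice had received KP cells, a mouse lung adenocarcinoma line, or their GFP-labelled derivative, by injection into the tail vein. Which of these a given sample had, the age of the mice and any pooling of animals are not given in the sources used here. These tumours are foci seeded by a transplanted line from the blood and did not arise in the lung itself. Each group had 1 peak list shared by all its samples, so no value has a replicate error and no test between the groups was possible. Each 95% Wilson interval below covers counting error over peaks only.

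In ATAC-seq a transposase cuts and tags DNA that is free of nucleosomes, so that peaks of tags mark promoters and enhancers open to regulators. Alveolar macrophages live in the airspaces, clear surfactant lipid and are maintained by the cytokine GM-CSF, whose receptor acts through the nuclear receptor Pparg. The transcription factors Cebpb, Bhlhe40 and Bhlhe41 also act in these cells. The factor PU.1, encoded by Spi1, opens chromatin across the myeloid lineage. MHC class II molecules, which show peptides to helper T cells, are switched on by Ciita acting with the RFX and NF-Y factors. In bulk samples, fewer cells with an open site and less opening of that site in each cell cannot be told apart.

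A boundary peak of a gene is any peak no more than 1000 bp from its start or its end. A gene was kept when it had one in both lists, lost when only in the naive list and gained when only in the day 15 list. These words describe peak calls, not amounts of accessibility. Peak strength is the authors' −log10 p, ranked within each list with 1 as the strongest, and tags are those piled up at the summit. Tags are raw counts. Depth at day 15 was 2.38 times that of the naive list, so tags of the 2 lists cannot be compared directly.

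The promoters below belong to genes on which the macrophage results turn, the first of each status among the macrophage genes. Their CpG content differs widely. The ratio of observed to expected CpG over the 300-base window was 0.974 at Klf4, 1.03 at Cebpb, 0.853 at Cebpa and 0.738 at Csf2ra. It was 0.483 at Kcnn3, 0.170 at Pparg, 0.058 at Ear2, 0.167 at Mrc1 and 0.101 at Il18. Each is the 250 bases before a start site, read 5′ to 3′ on the gene's strand from the RefSeq promoter table (GRCm38.p6, the same build as mm10), with status taken at the window around that start site in the lists of equal length. Capitals mark matches, on either strand, to the motifs searched, which are spelled out further on. A match is a run of letters and not a site shown to be bound. The bases printed do not always hold the peak summit. Relative to the start, the naive summit lay at -505 for Klf4. Naive and day 15 summits lay at 189 and 176 for Il18 and at 126 and 131 for Cebpb. For the other promoters printed, the summits lay within the bases shown.
Pparg (lost, chr6:115421816-115422065, plus strand): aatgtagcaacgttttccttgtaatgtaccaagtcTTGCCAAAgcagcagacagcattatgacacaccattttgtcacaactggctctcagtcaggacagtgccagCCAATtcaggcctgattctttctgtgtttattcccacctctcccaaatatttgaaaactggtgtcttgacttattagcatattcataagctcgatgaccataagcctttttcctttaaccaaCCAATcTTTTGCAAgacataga
Ear2 (lost, chr14:44102404-44102653, plus strand): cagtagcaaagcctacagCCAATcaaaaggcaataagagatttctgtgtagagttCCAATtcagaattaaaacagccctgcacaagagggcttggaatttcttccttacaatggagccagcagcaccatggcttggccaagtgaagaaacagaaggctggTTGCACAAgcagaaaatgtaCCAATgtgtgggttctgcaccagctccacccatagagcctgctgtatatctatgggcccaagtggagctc
Klf4 (lost, chr4:55532476-55532725, minus strand): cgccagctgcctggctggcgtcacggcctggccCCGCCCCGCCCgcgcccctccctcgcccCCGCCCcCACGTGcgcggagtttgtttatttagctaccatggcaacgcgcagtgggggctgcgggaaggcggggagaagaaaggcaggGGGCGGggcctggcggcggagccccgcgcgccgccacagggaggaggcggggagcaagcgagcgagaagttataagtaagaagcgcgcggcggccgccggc
Csf2ra (kept, chr19:61228419-61228668, minus strand): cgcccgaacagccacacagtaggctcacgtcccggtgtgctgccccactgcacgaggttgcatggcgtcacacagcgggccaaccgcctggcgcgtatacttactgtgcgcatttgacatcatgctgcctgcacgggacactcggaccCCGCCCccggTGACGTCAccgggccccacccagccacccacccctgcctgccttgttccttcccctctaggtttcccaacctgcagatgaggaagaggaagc
Cebpb (kept, chr2:167688665-167688914, plus strand): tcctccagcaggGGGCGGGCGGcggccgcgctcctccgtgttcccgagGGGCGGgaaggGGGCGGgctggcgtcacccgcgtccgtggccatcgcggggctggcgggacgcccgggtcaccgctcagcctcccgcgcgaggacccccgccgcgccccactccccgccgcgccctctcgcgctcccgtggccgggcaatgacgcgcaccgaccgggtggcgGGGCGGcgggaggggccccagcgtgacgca
Cebpa (kept, chr7:35119043-35119292, plus strand): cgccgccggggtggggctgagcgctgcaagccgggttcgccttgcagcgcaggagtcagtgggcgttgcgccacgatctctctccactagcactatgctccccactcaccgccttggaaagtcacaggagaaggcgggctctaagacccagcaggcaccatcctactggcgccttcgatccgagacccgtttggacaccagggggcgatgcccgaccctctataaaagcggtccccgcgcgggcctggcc
Mrc1 (gained, chr2:14229164-14229413, plus strand): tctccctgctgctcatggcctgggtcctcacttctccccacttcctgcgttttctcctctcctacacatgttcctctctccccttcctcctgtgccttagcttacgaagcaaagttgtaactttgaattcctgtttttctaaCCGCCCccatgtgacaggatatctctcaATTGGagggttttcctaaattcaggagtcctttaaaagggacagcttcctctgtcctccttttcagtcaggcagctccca
Il18 (gained, chr9:50554450-50554699, plus strand): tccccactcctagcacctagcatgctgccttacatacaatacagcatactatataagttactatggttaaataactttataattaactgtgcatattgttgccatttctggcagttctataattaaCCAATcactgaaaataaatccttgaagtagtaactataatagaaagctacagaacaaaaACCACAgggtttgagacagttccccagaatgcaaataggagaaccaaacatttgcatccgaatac
Kcnn3 (gained, chr3:89519914-89520163, plus strand): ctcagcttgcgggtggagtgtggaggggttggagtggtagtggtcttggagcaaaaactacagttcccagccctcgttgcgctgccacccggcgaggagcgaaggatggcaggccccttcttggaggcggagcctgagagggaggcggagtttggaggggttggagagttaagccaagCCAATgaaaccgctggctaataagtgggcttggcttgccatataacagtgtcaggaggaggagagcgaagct
The Pparg start shown is an internal one. A naive peak of 16 tags, rank 6138, covered it at chr6:115421690-115422112, and no day 15 peak did. The promoter of Cebpa, printed without capitals, held no match to any motif searched.

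Naive peaks covered 5673 kb and day 15 peaks 4062 kb. The list with fewer peaks had 2.38 times the depth, with a genome-wide background of 93.5 tags per 10 kb at day 15 against 39.2 in the naive list. Median width was 342 and 333 bp in naive and day 15 peaks, and the authors' fold had medians of 6.80 and 5.65. The cell type named by the labels was checked against marker genes. In the naive list, boundary peaks lay at 14 of 29 alveolar macrophage genes, and at day 15 at 11, while Siglecf, Marco, Chil3, Car4, Fabp4, Plet1, Bhlhe41, Fabp1, Ear1, Krt79 and Krt19 had none in either. Over all 21887 protein-coding genes, boundary peaks lay at 7594 in the naive list and at 6477 at day 15. None of 16 lung epithelial genes or of 12 fibroblast and smooth muscle genes had one in either list. Of 12 endothelial genes, Flt1 was the only member with one, at day 15 (rank 9366, 14 tags). T and NK cell genes had 3 of 16 in both lists, B cell genes 1 of 11 (Bank1), neutrophil genes 2 of 12 (S100a8 and Mmp8) and dendritic cell genes 1 of 10 (Xcr1). These counts of other cell types were equal in the lists of equal length except for Flt1.

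As deposited, 64.1% of the naive peaks overlapped a day 15 peak by at least 1 bp (95% Wilson interval 63.3 to 64.9) and 87.2% of the day 15 peaks overlapped a naive peak (86.6 to 87.9). The shares absent from the other list were 35.9% and 12.8%. At equal length the difference between the directions nearly closed: 75.3% of the strongest naive peaks were shared (74.5 to 76.1) and 76.0% of the day 15 peaks (75.2 to 76.8), leaving 24.7% and 24.0% absent. Of the 2607 day 15 peaks absent from the equally long naive list, 1222 overlapped a naive peak too weak for the shortened list (46.9%, interval 45.0 to 48.8). The deposited lists therefore shared more of the day 15 peaks than the equal-length lists did.

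Sharing followed peak strength. In the strongest decile of the naive list 99.8% of peaks were found at day 15, in the fifth decile 70.5% and in the weakest 26.0%. In the day 15 list the same deciles gave 100%, 91.9% and 63.9%. Of the 1000 strongest naive peaks, 1 had no counterpart anywhere in the day 15 list, of the strongest 2000 there were 11 and of the strongest 5000 there were 296. Of the day 15 peaks of the same ranks, 0, 6 and 96 had no naive counterpart, and 0 of 1000 allows a share of up to 0.383% (upper Wilson bound). The first naive peak without a counterpart stood at rank 739 and the first day 15 peak at rank 1543. Peaks found in 1 list were small: naive peaks without a counterpart had a median of 12 tags and 260 bp, against 19 tags and 412 bp for shared ones, and day 15 peaks 15 tags and 237 bp against 20 tags and 353 bp.

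**Figure D1:**
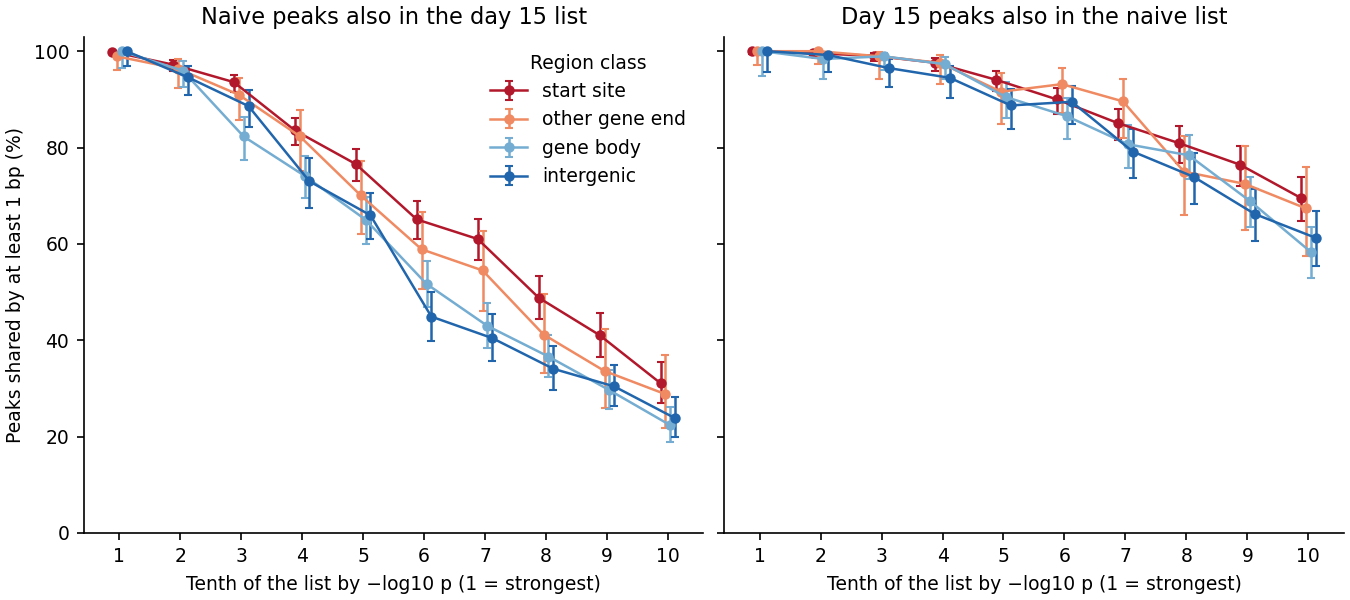
Share of peaks overlapping the other deposited list (percent, points with 95% Wilson intervals over peaks) by decile of peak strength and region class, naive peaks on the left and day 15 peaks on the right. Nearly all of the strongest peaks were shared, and in the weaker deciles of the naive list the start site peaks lay above the gene body and intergenic ones.

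Start sites were shared more often than other regions in both directions. Peaks were put, in this order, at start sites (within 1000 bp of the start of a protein-coding gene), other gene ends, gene bodies and intergenic regions. The start table covered 17492 genes, and the starts of the rest fell under other gene ends. At equal length 84.2% of 5192 naive start site peaks were shared (83.2 to 85.2), 78.9% of 1116 at other gene ends, 64.5% of 2386 in gene bodies and 64.2% of 2167 between genes (62.1 to 66.2). The day 15 peaks gave 83.0%, 79.9%, 66.8% and 66.6%. Peaks near starts were also stronger: the median naive rank was 5395 within 100 bp of a start and 8064 beyond 100000 bp. Start site peaks were also shared more often within each of 2 broad classes of strength. Strength was not equal inside a class: start sites made up 71.6% of the strongest naive decile and 41.1% of the fifth. In the weaker 50% of the deposited naive list, 50.3% of start site peaks were shared (48.3 to 52.3) against 34.5% of intergenic peaks (32.4 to 36.6), and in the stronger 50% 91.7% against 80.7%. The day 15 list gave 80.9% against 73.4% in its weaker 50% and 98.4% against 94.7% in its stronger 50%. By decile the gap varied. Naive start site and intergenic peaks were shared in 99.9% and 100% in the strongest decile and in 65.1% and 44.9% in the sixth. At day 15 the same deciles gave 100% for both, and 90.0% and 89.5%.

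Beyond 1000 bp from a start, sharing differed little with distance in the naive list and rose with distance in the day 15 list. Naive peaks whose summit lay within 100 bp of a start were shared in 77.1%, those between 100 and 1000 bp in 74.8%, those between 1000 and 5000 bp in 52.6% and those beyond 100000 bp in 55.7%. Day 15 peaks were shared in 92.2% within 100 bp and 89.9% between 100 and 1000 bp. Their share was 78.8% between 1000 and 5000 bp (75.1 to 82.1), 81.8% up to 20000 bp, 83.4% up to 100000 bp and 85.3% beyond (83.2 to 87.2). In the same order these day 15 peaks were also stronger, with median ranks of 6616, 6580.5, 6427 and 5985. Shared naive summits lay a median of 516 bp from a start and naive-only summits 14965 bp. At day 15 the medians were 512 and 10123 bp. Start sites made up 30.6% of the naive-only peaks at equal length (28.9 to 32.4) and 34.8% of the day 15-only peaks (33.0 to 36.6), against 53.4% and 53.5% of the shared peaks.

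Across 21887 protein-coding genes, 7594 carried a boundary peak as naive and 6477 at day 15. Of the naive genes 6042 were kept and 1552 lost, 20.4%, and 435 of the genes without one were gained, 3.04%. With lists of equal length 6422 naive genes were left, of which 5538 were kept and 884 lost, 13.8%, and 939 were gained, 6.07%. A weaker naive boundary peak, beyond the equal length, existed for 504 of these 939 genes. The counts of lists below are at equal length and are to be read against these 13.8% and 6.07%. The 6.07% is taken over genes of all tissues: of 1106 genes of olfactory receptors, the odour sensors of the nose, 2 had a boundary peak and both were kept. One peak can count for neighbouring genes, and a boundary peak need not lie at the promoter of the gene named.

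Genes that define alveolar macrophages changed peak status in both directions. Of the 29, 9 had a naive boundary peak at equal length, 6 of them were kept and 3 lost, and 5 were gained. The lost genes were Klf4, a zinc finger factor (rank 5951, 23 tags), Fabp5, a fatty acid binding protein (rank 9863, 13 tags), and Ear2, an eosinophil-type ribonuclease (rank 9912, 11 tags). Pparg, Itgax, the CD11c integrin, Cidec, a lipid droplet protein, and Perp also had naive boundary peaks and none at day 15, but these ranked 13566, 14191, 12056 and 13535 with 9, 8, 15 and 12 tags, below the length of the day 15 list. All 7 genes lost as deposited had 23 tags or fewer in the naive list.

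The GM-CSF receptor kept its peaks. The ranks given are those of the strongest boundary peak of each gene. Csf2ra, its ligand-binding chain, had 24 tags at rank 3726 in the naive list and 23 tags at rank 5892 at day 15, and Csf2rb, its signalling chain, 13 tags at rank 9375 and 20 tags at rank 5607. A separate Csf2ra peak, over the promoter printed above, moved the other way, from rank 9754 with 16 tags to rank 6132 with 23. Its tags came to 20.4 and 12.3 times the background of their list. Cebpb moved from rank 4558 to 5551 (29 and 32 tags), Bhlhe40 from 4213 to 7952 (32 and 23 tags) and Atp6v0d2, a subunit of the proton pump, from 3104 to 9750 (27 and 18 tags). Lpl, the lipase that releases fatty acids from triglyceride, climbed from rank 9620 with 14 tags to rank 1912 with 26 tags. These tags came to 17.8 and 13.9 times the background of their list. Counting a climb in rank at day 15 as positive, the median move of the 6 kept genes was -1579.5 places, with 2 of 6 higher, and that of all 5538 kept genes 6 places, with 50.2% higher.

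Gained were Ctsk, a cathepsin protease (rank 5477, 18 tags), Kcnn3, a potassium channel (rank 5929, 19 tags), Slc7a2, an arginine transporter (rank 10377, 12 tags), Mrc1, the mannose receptor (rank 10521, 13 tags), and Il18, an interleukin of the IL-1 family. Il18 was the only one of these with a weaker naive peak, at rank 11163 with 12 tags, and stood at rank 3849 with 19 tags at day 15. The promoter windows of Mrc1, Il18 and Kcnn3 are among those printed above.

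No MHC class II gene was lost at equal length: of 18, 6 had a naive boundary peak, all were kept, and 5 were gained. The kept genes were mainly factors acting upstream of the class II genes. Nfyb had 37 tags at rank 662 in the naive list and 33 at rank 1215 at day 15, Nfya 34 at rank 1687 and 36 at rank 1241, Rfxap 31 at rank 1961 and 27 at rank 2257, and Rfxank 19 at rank 4441 and 24 at rank 2866. Nfya also had a separate day 15 peak at its start site that the naive list lacked, chr17:48408968-48409214 with 30 tags. Of the peptide-loading genes, H2-DMb1 stood at rank 9410 and 8125 and H2-DMb2 at 8622 and 10655. The gained genes were those of the antigen-presenting chains and their partners. H2-Aa (rank 8369, 16 tags), H2-Eb1 (rank 8290, 15 tags) and the invariant chain Cd74 (rank 6486, 22 tags) had no boundary peak called in the deposited naive list. H2-Ab1 (rank 12872 with 9 tags, then 10239 with 15) and H2-DMa (rank 11267 with 18 tags, then 3166 with 32) had a weak one. At day 15 the tags came to 8.55, 8.02 and 11.8 times the background at H2-Aa, H2-Eb1 and Cd74. The median over all naive peaks was 20.4 times their background. Whether sites of that height would be called in the naive list was not tested. The tags of H2-DMa came to 22.9 and 17.1 times the background of their list. Ciita, Rfx5, Nfyc, H2-Eb2, H2-Oa, H2-Ob and Ctss had none in either list. MHC class I presentation, 23 genes, had 14 kept, 1 lost and 3 gained. Its classical gene H2-K1 moved from rank 6959 with 16 tags to rank 725 with 35, and B2m, the light chain, from 1014 to 1738. The tags of H2-K1 came to 20.4 and 18.7 times the background of their list. H2-T22, Tapbp and the immunoproteasome subunit Psmb8 were gained and Nlrc5, the class I transactivator, was lost (rank 8359, 13 tags).

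**Figure D2:**
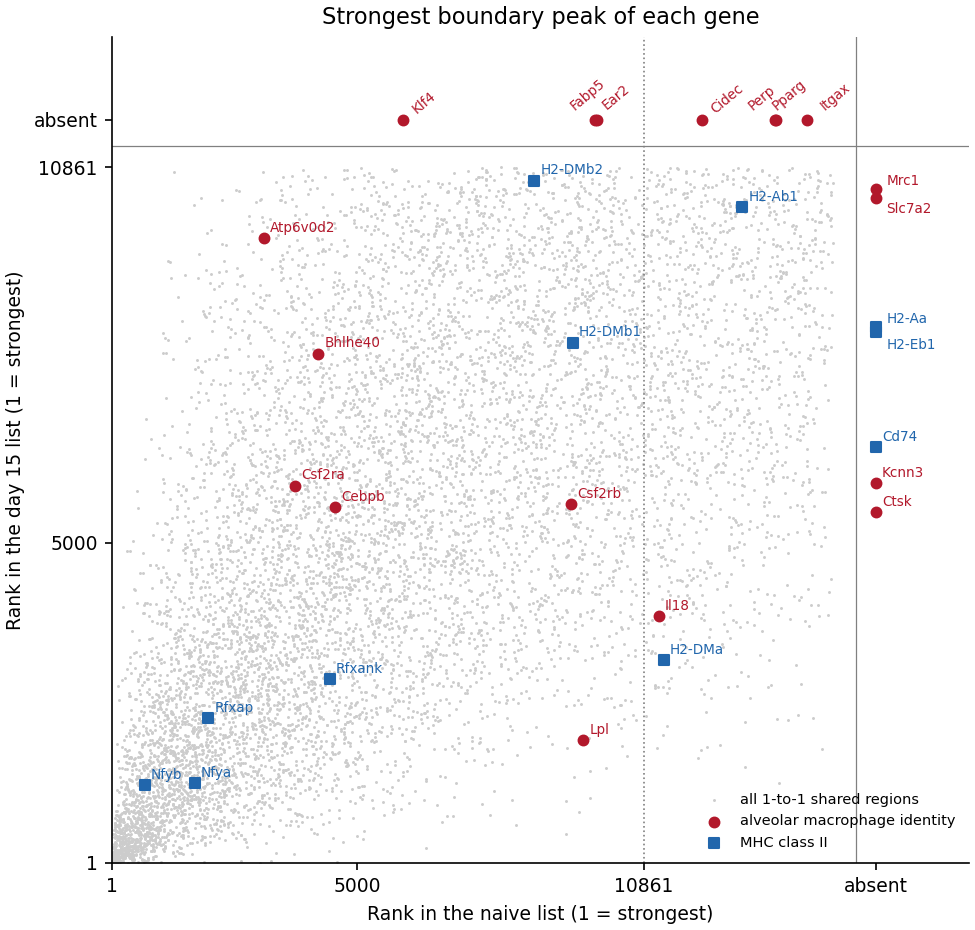
Rank of the strongest boundary peak of each gene in the naive list (horizontal) and the day 15 list (vertical), 1 being the strongest, for alveolar macrophage genes (red circles) and MHC class II genes (blue squares), over all 9104 shared regions matched 1 to 1 (grey). Genes in the strip at the top had no day 15 boundary peak, genes in the strip at the right no naive one, and the dotted line marks the length of the day 15 list, which Il18, H2-DMa and H2-Ab1 lie beyond.

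General macrophage and myeloid genes had 9 of 27 kept, 0 lost and 6 gained, and 4 of the 6 had a weaker naive peak. Among these, Spi1 had a naive peak at rank 13592 with 14 tags and a day 15 peak at rank 9651 with 19. Lyz2, lysozyme, had peaks at rank 11408 with 13 tags and rank 4391 with 23, or 16.6 and 12.3 times the background of their list. Axl, a receptor that helps to clear dying cells, had its strongest peak at different ends of the gene in the lists. Cebpa moved from rank 1076 with 38 tags to rank 255 with 46, and Cebpd from 1806 with 34 to 5168 with 23. The Cebpa tags came to 48.4 and 24.6 times the background of their list. Of 18 genes marking monocyte-derived or interstitial macrophages, 2 were kept, Maf (rank 2973 and 3021) and Klf2 (2241 and 1348), and 2 were gained, both integrin chains: Itgal (rank 5735, 18 tags) and Itgam, with a weak naive peak (rank 13492, then 9734). Ccr2, Cx3cr1 and the complement genes C1qa, C1qb and C1qc were among the 14 members with no boundary peak at equal length.

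Genes of inflammatory signals were spread over all outcomes. Of 26 cytokine and chemokine genes, 4 were kept, 3 lost and 6 gained, and 4 of the 6 had a weaker naive peak. Ccl3 and Ccl4, neighbouring chemokine genes, share a single peak (rank 12635 with 9 tags, then 9069 with 13). Ccl2, which draws in monocytes, moved from rank 10637 to 4940 (11 and 19 tags) and Tnf from 8323 to 6063 (16 and 21 tags). Lost were Casp1, the protease that matures IL-1β and IL-18 (rank 5186, 16 tags), Ccl6 (rank 5530, 17 tags) and Icam1 (rank 8893, 14 tags). Interferon response genes, 31 in all, had 10 kept, 4 lost and 1 gained. Among the lost were the transcription factor Irf3 (rank 6900), the interferon receptor chain Ifnar2 (7214) and Isg20 (9967), the gained gene was Irf5 (7286), and Irf1 moved from 7116 to 2521. The Ifnar2 peak lay past the higher-coordinate end of the gene and was not classed as a start site. The NF-kB and Toll-like receptor list kept 18 of 20, lost Rela, the p65 subunit (rank 4991, 16 tags), and Tlr6, and kept Rel (3534 and 2084) and Nfkb1 (7009 and 8526). Its 2 gained genes, Ikbkb and Ikbkg, which encode subunits of the IκB kinase, both had a weaker naive peak.

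Genes that restrain T cells ranked lower among the kept. Of 22 genes, 7 were kept, 2 lost and 2 gained, and 1 of the 7 kept stood higher at day 15, with a median move of -2714 places. Havcr2, the checkpoint receptor TIM-3, moved from rank 2863 with 22 tags to 9864 with 13, and Lgals9, its ligand galectin-9, from 2347 to 5061. Cd274, which encodes PD-L1, and Vsir were gained. Cd274 had a naive peak at rank 11784 with 10 tags, below the length of the day 15 list, and a day 15 peak at rank 6306 with 18. These tags came to 12.7 and 9.62 times the background of their list. Socs1 and Lilrb4a were lost. The TGF-beta list had 15 kept, 2 lost and 2 gained of 27, with its receptor Tgfbr1 at rank 702 and 4061 and Tgfbr2 at 8918 and 8477, while the inhibitor Smad6 and the corepressor Tgif1 were lost. Matrix and tissue remodelling, 26 genes, had 5 kept, 3 lost and 0 gained. The lost genes were Spp1, osteopontin (rank 8297, 15 tags), Timp2, a protease inhibitor, and Tgm2, a crosslinking enzyme.

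Most kept lipid and lysosome genes ranked higher at day 15, as did most kept genes of several comparison families. Cholesterol and fatty acid genes had 14 kept, 3 lost and 4 gained of 32, and 11 of the 14 ranked higher at day 15, with a median of 1045 places up. Nr1h2, the LXR beta receptor, moved from rank 5056 to 1975 and Srebf2, which drives cholesterol synthesis, from 3929 to 2919, and Soat1, which esterifies cholesterol, was among the gained. Nr1h3, the LXR alpha receptor, and its target Abca1, the cholesterol exporter, were lost (ranks 8809 and 9003), as was Dgat2. The Nr1h3 peak lay outside the gene, beyond its lower-coordinate end. Lysosome and proton pump genes had 18 kept, 2 lost and 5 gained of 31, and 12 of the 18 ranked higher, with a median of 1316 places up. Among families used for comparison, kept splicing factors had 30 of 45 higher (median 642 places up), proteasome subunits 14 of 21 (690), replication-dependent histones 23 of 36 (731.5) and Rab GTPases 20 of 30 (540.5). Of the lysosome genes, Lamp2, and Hexa with a weaker naive peak, were among the gained, and Ctsz and Atp6ap1 were lost. Autophagy genes, which feed the lysosome, had 17 kept, 5 lost and 1 gained of 30, with Ulk2, Atg12 and Pik3r4 among the lost.

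Among stress and early response genes, the share lost was 4.35% in the heat shock list, 13.3% in the NRF2 list and 4 of 20 genes in the AP-1 and early response list, beside 13.8% over all genes. The heat shock list kept 22 of 23, losing Hspa1a, and the NRF2 oxidative stress list had 13 kept, 2 lost (Sod1 and Blvra) and 1 gained (Prdx1), with Nfe2l2, the gene of NRF2, at rank 5558 and 745 (24 and 39 tags). AP-1 and early response genes had 16 kept, 4 lost and 2 gained. Fosl2 moved from rank 5529 with 27 tags to 1151 with 41, while Fos moved from 2446 to 4690. Over the background of their list, the tags came to 30.6 and 20.8 at Nfe2l2 and to 34.4 and 21.9 at Fosl2. Fosb, Mafk and the nuclear receptor Nr4a2 (rank 3658, 21 tags) were among the lost, and Nr4a3 and Dusp1 were gained. Dusp1 had a weaker naive peak at rank 11046 and a day 15 peak at rank 3562. The hypoxia and glycolysis list had 17 kept, 2 lost (Hif1an and Pfkm) and 2 gained (Egln1 and Pfkl), with a median of 0 places. Both gained genes had a weaker naive boundary peak, but that of Pfkl did not overlap its day 15 peak.

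Large gene families served for comparison. Cytosolic ribosomal protein genes had 52 of 55 kept and 9 gained, oxidative phosphorylation genes 45 of 49 and 8 gained, splicing factors 45 of 49 and 7 gained, and translation factors 41 of 46 and 7 gained. Proteasome subunits had 21 of 22 kept and 5 gained, replication-dependent histones 36 of 37 and 4 gained, and Rab GTPases 30 of 33 and 3 gained. Mitochondrial ribosomal protein genes had 8 of 42 lost, 19.0%, and 8 gained. Of the genes without a naive boundary peak, 36.8% were gained for splicing factors, 30.4% for translation factors and 30.0% for cytosolic ribosomal proteins. The share was 29.4% for proteasome subunits, 22.2% for oxidative phosphorylation and for mitochondrial ribosomal proteins, 16.0% for histones and 11.5% for Rab GTPases. Beside these stood 41.7% for MHC class II, 33.3% for general macrophage and 25.0% for alveolar macrophage genes. Many of the gained genes had a weaker naive peak: 6 of 8 for oxidative phosphorylation, 6 of 7 for splicing factors, 6 of 8 for mitochondrial ribosomal proteins, 4 of 4 for histones and 3 of 3 for Rab GTPases. The counts were 4 of 9 for cytosolic ribosomal proteins, 4 of 7 for translation factors and 1 of 5 for proteasome subunits. In the deposited lists lost and gained genes numbered 6 and 2 for oxidative phosphorylation, 6 and 1 for splicing factors and 12 and 2 for mitochondrial ribosomal proteins. They numbered 5 and 0 for histones, 4 and 0 for Rab GTPases, 8 and 5 for cytosolic ribosomal proteins, 7 and 3 for translation factors and 4 and 4 for proteasome subunits. Numbered zinc finger genes, a large family of DNA-binding proteins, had 41 of 159 lost, 25.8% beside the 13.8% over all genes, and 23 gained. Zfp119a, among the lost, had 23 tags at rank 2513. Cell cycle genes had 13 kept, 2 lost and 5 gained: Ccnb1 (rank 3282, 18 tags) and Bub1 were lost and Mki67 kept (7004 and 6118). The strongest Mki67 peaks of the lists were separate regions that did not overlap. Birc5 was gained, as were Top2a and Cdk4, both with a weaker naive peak. Chromatin modifiers kept 19 of 20 and gained 4, among them Crebbp, and Ep300 with a weaker naive peak.

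**Figure D3:**
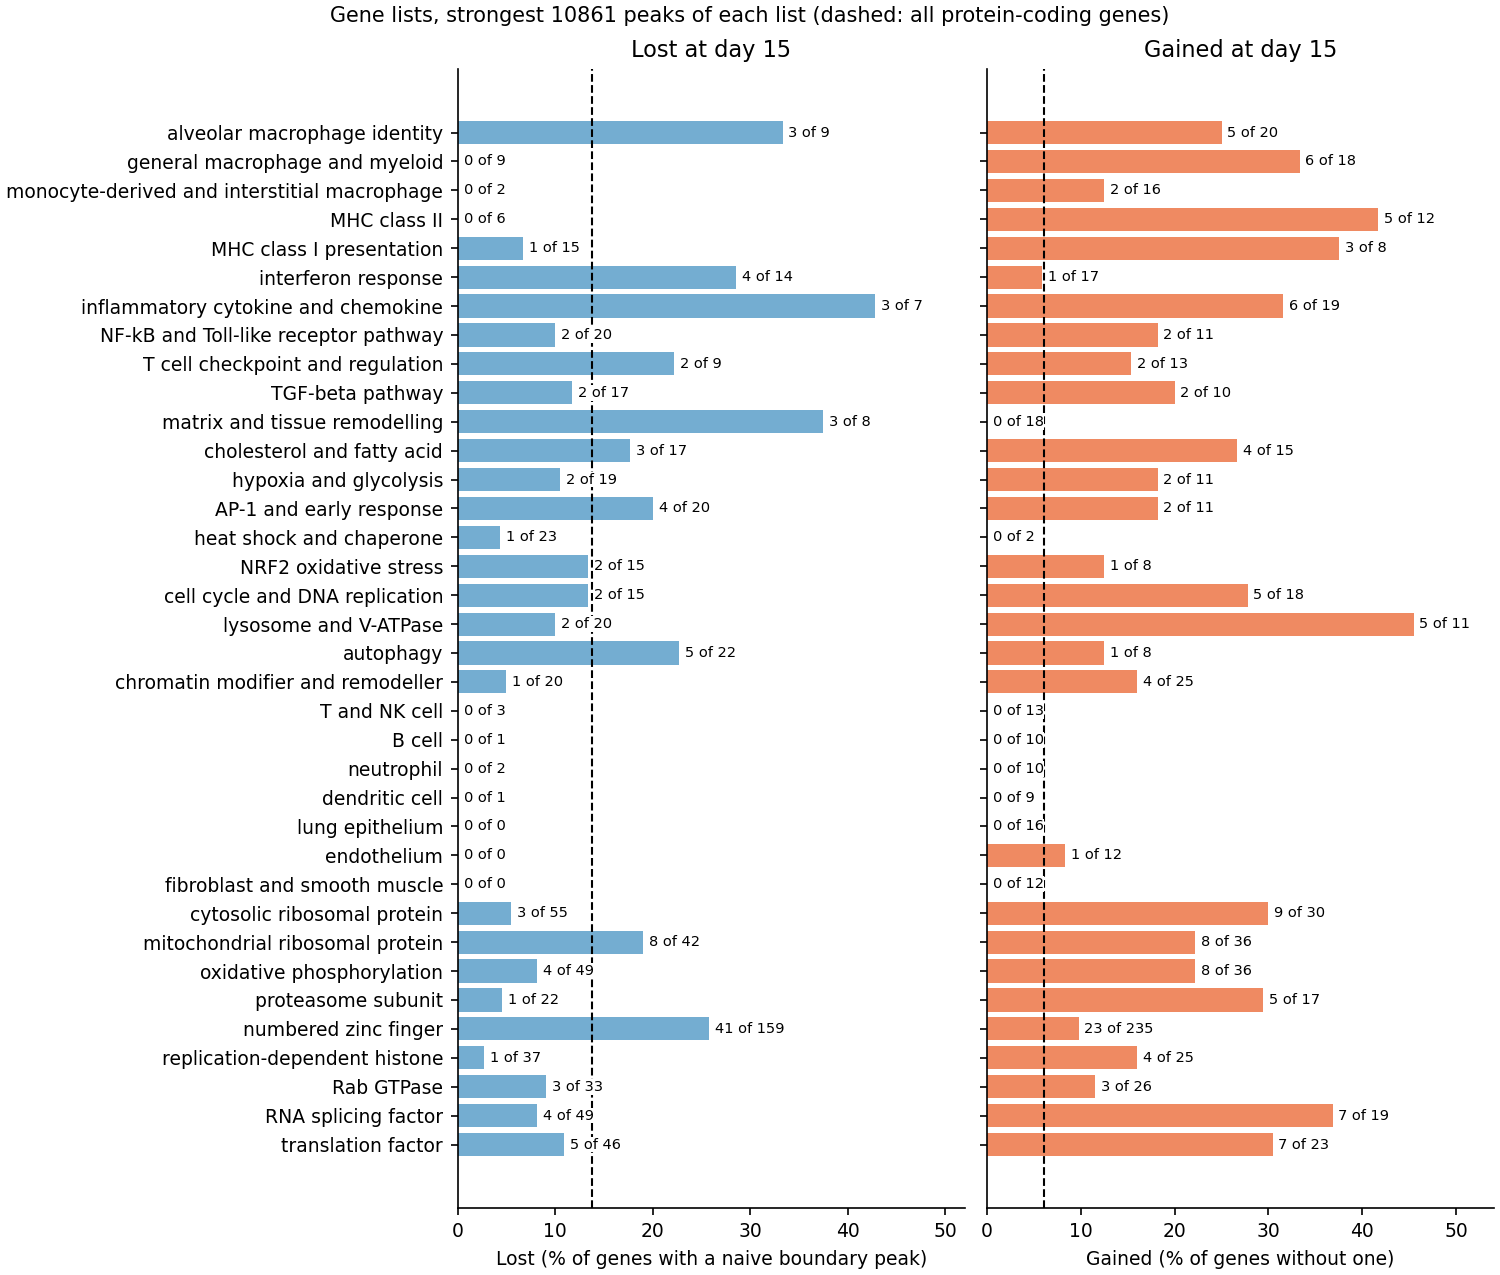
Share of each list's genes with a naive boundary peak that was lost (left, percent) and of its genes without one that was gained (right, percent), in lists of equal length, with the counts beside each bar. The dashed lines are the 13.8% lost and 6.07% gained over all protein-coding genes, and the numbered zinc finger bar on the left stands at 25.8%.

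The first 2 peaks were the same regions in both lists, in the opposite order: chr1:24612592-24613278, with 99 tags in the naive list, and chr2:98666475-98667385, with 122, both intergenic. The next 3 naive peaks lay within Pex2, at an end of Mtmr4 and at the start of Zfp654, and the next 3 day 15 peaks near the same intergenic region of chromosome 2, within Filip1l and within Pcmtd1, and all of them were shared. The strongest naive peak with no counterpart at day 15 lay at an end of Asnsd1, chr1:53352374-53352914, with 32 tags. It was followed by the start of Pdzd11 on chromosome X (26 tags). Also among the first 15 was the start of Eif2ak1, a kinase that halts translation when haem is short (24 tags). Others of these lay at G2e3, Mettl22, Fam199x, Tab2, a signalling adaptor below TNF and IL-1 receptors (26 tags), Slc45a4 and Iftap, and in intergenic regions nearest to Mmp10, Ier5, Vmn2r126, and, over 50 kb away, Ly96 and Usp46. The day 15 peaks with no naive counterpart began with a peak within Extl3 (rank 1543, 28 tags) and the starts of Kansl3 and Pfkl (26 tags each). The others among their first 15 lay at or near St7, Tra2a, Trp53inp2, Stk35, Il31ra, Nfya, Gm5737, LOC100504180, Nol11, Ubald2 and Sun2, and, over 50 kb away, Dnttip2.

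Per unit of depth, shared regions held fewer tags at day 15. Summit tags divided by the genome-wide background of their list came to a median of 24.2 for naive peaks and 10.7 for day 15 peaks over the 9104 regions matched 1 to 1. The median ratio of day 15 to naive was 0.449 (quartiles 0.375 and 0.549), and 33 regions, 0.362%, had a ratio above 1. The ratio was 0.440 at start sites, 0.439 at other gene ends, 0.472 in gene bodies and 0.461 between genes. Signal over background and depth moved together with the group, and their part in the counts of lost and gained peaks was not tested.

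**Figure D4:**
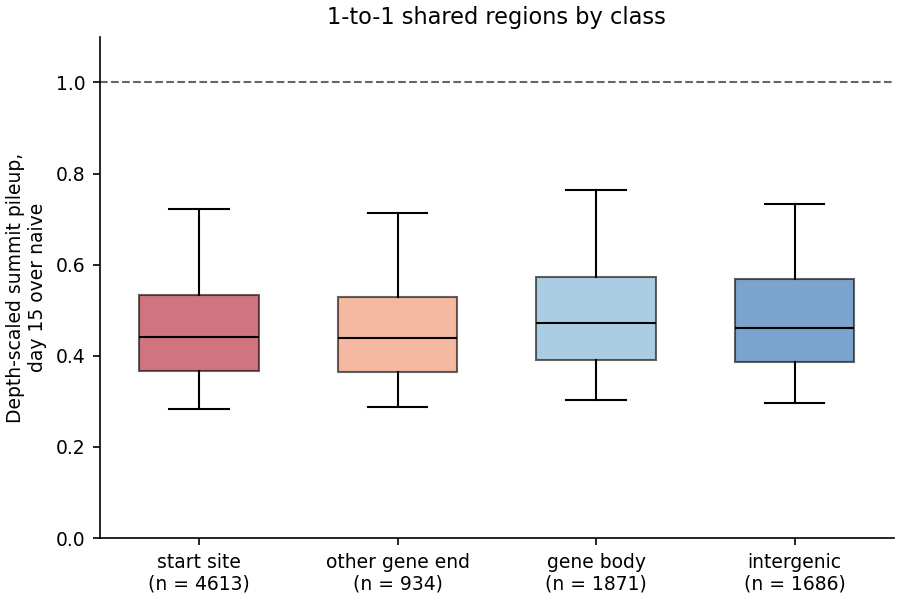
Ratio of summit tags over genome-wide background, day 15 to naive, in regions matched 1 to 1, by class: boxes span the quartiles with the median as a line, whiskers the 5th to 95th percentile. The dashed line is a ratio of 1, and the medians lie between 0.439 and 0.472.

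Within lists of equal length, the order of shared regions hardly differed by class. The median start site region stood 6 places higher at day 15 (95% interval of the median -32 to 49), the median gene body region 64.5 places higher and the median move of intergenic regions was -76 places (-211 to 69). Among boundary regions in the first 2000 of either list, those that climbed most lay at Gpank1 (rank 9265 to 451, 14 and 37 tags), Chaf1b, a histone chaperone subunit (9768 to 1008), Eif2b2 (9531 to 791), U2af1, a splicing factor (10089 to 1488), Ddx17, Harbi1, Hnrnpm, 2810408A11Rik, Lpl and Iqch. Those that dropped most lay at Cav1, the caveolae protein (1672 to 10267, 26 and 12 tags), Prdm11 (1147 to 9399), Gm14325, Taf3, 1700066M21Rik, Phactr4, Usp31, Prpf38a, Cdkn2c, a cell cycle inhibitor (1045 to 7958), and Rybp. Even so, the 14 tags of Gpank1 in the naive list and 37 at day 15 came to 17.8 and 19.8 times the background of their list.

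Promoters whose peak was kept, lost or gained had similar median base composition, unlike promoters without a peak. The RefSeq table held 21263 promoter windows of 300 bases for 17492 of the genes. Median GC content was 62.7% in kept, 61.0% in lost and 62.0% in gained windows and 52.7% in those with no peak. The ratio of observed to expected CpG was 0.833, 0.783, 0.822 and 0.346. CpG-poor windows, with a ratio below 0.5, were 6.78% of kept (6.11 to 7.52), 14.3% of lost (12.1 to 16.8) and 12.1% of gained windows (10.0 to 14.4), beside 45.5% of all windows.

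The 12 motifs were searched on both strands as fixed letters: AP-1 TGANTCA, CRE TGACGTCA, PU.1 GAGGAAGT, ETS CCGGAAGT, CCAAT box CCAAT, GC box GGGCGG, E-box CACGTG, C/EBP TTGCNNAA and RUNX TGTGGT, and the longer consensus strings of NRF1, ISRE and NF-kB, which hold unspecified bases. The PU.1 and ETS strings share GGAAGT, and repeats of the GC box can overlap each other. The CCAAT box, the letters NF-Y reads, was in 48.5% of kept windows (47.1 to 49.9), 37.4% of lost (34.3 to 40.7) and 31.6% of gained windows (28.6 to 34.8), beside 35.2% of windows without a peak and 38.2% of all windows. The NRF1 string was in 14.0% of kept, 10.6% of lost (8.67 to 12.8) and 15.5% of gained windows (13.3 to 18.1), beside 6.38% of all. The GC box was in 73.6% (72.4 to 74.9), 69.5% (66.3 to 72.5) and 67.1% (63.9 to 70.1), beside 46.2% of all, and the ETS string in 10.9%, 12.0% and 11.0%, beside 5.15% of all. AP-1 was in 3.93%, 3.87% and 4.40%, beside 6.99% of all, PU.1 in 3.50%, 3.05% and 2.78%, beside 3.13%, and CRE in 4.31%, 2.93% and 4.63%, beside 2.23%. E-box was in 10.2%, 11.4% and 12.9%, beside 7.84%, C/EBP in 7.83%, 7.63% and 8.69%, beside 10.2%, and RUNX in 11.1%, 10.3% and 12.3%, beside 15.0%. ISRE was in 2.39%, 3.05% and 2.67%, beside 3.35%, and NF-kB in 1.54%, 1.06% and 1.39%, beside 1.29%. Counting intervals did not overlap between kept windows and both others for the CCAAT box, between lost windows and both others for the NRF1 string, and between kept and gained windows for the GC box. In the deposited lists the intervals of lost and gained windows for the NRF1 string did overlap (8.86 to 12.0 and 11.0 to 17.5).

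**Figure D5:**
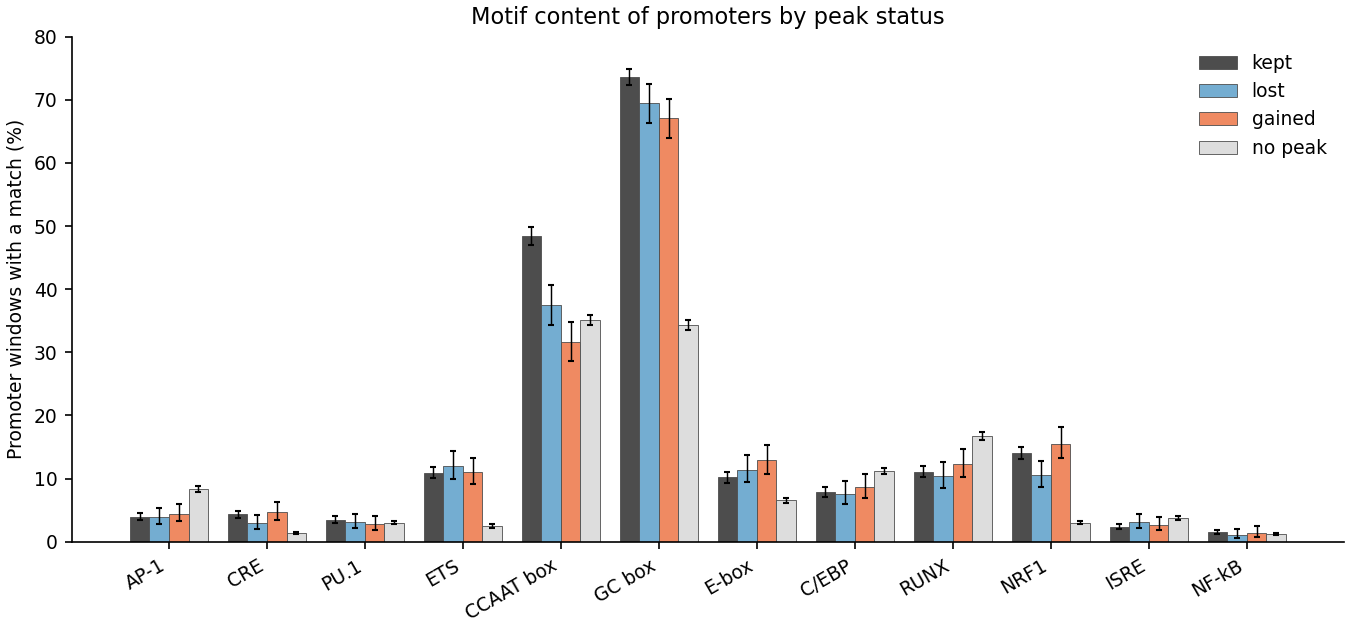
Share of promoter windows with at least 1 match to each motif (percent, with 95% Wilson intervals over windows), for windows whose peak was kept, lost or gained and for windows without a peak, in lists of equal length. The CCAAT box stands at 48.5% in kept windows against 37.4% in lost and 31.6% in gained ones.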

How the data were processed

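ATAC-seq peak lists were used, 1 for the 4 naive and 1 for the 4 day 15 samples. Bowtie2 2.3.4.1, MACS2 2.1.1 and mm10 were used, per the submitters' processing notes; no source used here gives tag shifting, filters or pooling. The deposited columns hold the peak caller's score, its ratio of summit tags to local background (fold), −log10 p-value and −log10 q-value; without headers, these were identified by their values. The weakest naive and day 15 peaks had a −log10 q of 1.41 and 1.59.

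Summit tags and local background were recovered from fold and p (every p within 0.001), which was tested on simulated peaks. The list floor gave the depth. Overlap meant at least 1 bp. Genes came from RefSeq GRCm38.p6, start sites from its promoter table. Intervals are Wilson intervals, and counting is the only error they cover. The day 30 list was not used. Named genes were, per list and in list order, up to 3 gained, 3 lost and 2 kept, with 2 lists in full, the 15 strongest peaks absent from the other list, the 10 largest rank moves each way and the first 5 peaks of each list; genes outside this rule are named as absences, and some genes that the rule names are not reported here. The 37 lists hold 2696 entries, 2675 different genes, 10 lists being symbol families. Members and lists were chosen with earlier results of these data known. Python 3.11.15, pandas 2.3.3 and numpy 2.4.6 were used.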

Additional observations from a re-analysis of the deposited data

How the results depend on the processing

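Of 104 alternative values for 32 results, 53 stayed within the interval or within 1.5 times the count and 51 moved. A change of sign could be scored only for the moves in rank. Their intervals include 0, so none could have been counted as reversed. Naive and day 15 sharing (64.1% and 87.2%) became 75.3% and 76.0% at equal length, 72.8% and 73.0% at the top 5000, 67.0% and 66.9% at the top 2000, 74.1% and 74.9% when ranked by fold, 62.9% and 85.6% with overlap of 50% of the shorter peak and 63.3% and 86.2% with the summit inside the other peak; without high background, day 15 sharing was 85.7%. The start site share of naive-only and day 15-only peaks (29.0% and 33.4%) was 26.5% and 30.5% with a 500 bp window, 32.1% and 37.3% with 2500 bp and 44.8% and 48.1% at the top 5000, and 30.6% for naive-only peaks at equal length. Sharing of naive start site peaks (76.0%) was 77.0%, 74.7%, 79.3% and 84.2%, and of intergenic peaks (52.5%) 61.1% at the top 5000 and 64.2% at equal length. Start site sharing exceeded intergenic sharing in each of these. Genes lost and gained (1552 and 435) were 884 and 939 at equal length and 742 and 808 at the top 5000, with 3061 kept. Gained genes thus outnumbered lost ones in both, the reverse of the deposited lists.

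In the lists as deposited, 7 alveolar macrophage genes were lost, 3 MHC class II genes gained, 3 general macrophage genes lost and 2 gained, 2 inflammatory genes gained, 62 zinc finger genes lost and 10 gained, and 8 ribosomal protein genes lost and 5 gained. With −log10 q of at least 3 the same counts were 7, 3, 3, 2, 2, 60, 12, 8 and 5, and 1 MHC class II gene was lost. With a 2500 bp window 1 inflammatory gene was lost. Ranked by fold, start site regions stood 55.5 places higher. No paired analysis was possible because each group has 1 list shared by all its samples, and leaving out a replicate was not possible for the same reason. The depth behind the lists differs 2.38-fold, so a peak absent from either list was not called there, which is no measure of closed chromatin, and the naive list could call a peak from 6 tags and the day 15 list from 9.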

Other observations

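Peaks near microRNA genes were kept, lost and gained. A microRNA is a short RNA that lowers the output of messages matching its seed, bases 2 to 8. Of 1005 hairpins in the RefSeq table, 47 lay within 1000 bp of a peak in the naive list at equal length and 54 at day 15: 41 were kept, 6 lost (12.8%) and 13 gained (1.36% of the hairpins without a naive peak), beside 13.8% and 6.07% over protein-coding genes. In the deposited lists 47 were kept, 15 lost and 7 gained. The examples below were chosen after their values were seen, and are printed with the seed in capitals, 5′ to 3′, from RefSeq (GRCm38.p6), to show that they share no seed.
mmu-miR-142a-3p (chr11:87756903-87756925, plus strand): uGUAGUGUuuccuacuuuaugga
mmu-miR-142b (chr11:87756906-87756925, minus strand): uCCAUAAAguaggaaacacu
mmu-miR-423-5p (chr11:77078122-77078144, minus strand): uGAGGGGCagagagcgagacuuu
mmu-miR-574-3p (chr5:64970364-64970385, plus strand): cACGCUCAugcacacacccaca
mmu-let-7i-5p (chr10:122985698-122985719, minus strand): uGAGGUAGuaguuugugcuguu
mmu-miR-210-3p (chr7:141221407-141221428, minus strand): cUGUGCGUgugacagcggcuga
mmu-miR-191-5p (chr9:108568325-108568347, plus strand): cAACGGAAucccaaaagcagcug
Mir142, a microRNA of blood cells, and Mir142b, encoded on the opposite strand of the same locus, were gained with a single day 15 peak (rank 9553, 18 tags), and Mir423 was gained (rank 8242, 14 tags). Mir574 was lost (naive rank 10813, 10 tags) with the peak that also counted for Tlr6. Mirlet7i, of the let-7 family, had a naive peak of 12 tags at rank 13305, below the length of the day 15 list, and none at day 15. Mir210, induced by low oxygen in many cells, was kept at rank 2154 and 4102, and Mir191 at rank 2584 and 10484.

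Chromosome X, chosen after its values were seen, shared fewer of its naive peaks than any autosome. Of its 330 naive peaks 50.6% were found at day 15 (95% Wilson interval 45.2 to 56.0), against 57.4% to 69.1% over the autosomes. The interval of the lowest autosome, chromosome 14 (53.1 to 61.5), overlaps that of X. In the stronger 50% of the naive list the share was 74.3% on X (67.1 to 80.3) and 87.5% on the autosomes together (86.7 to 88.2), and in the weaker 50% 26.4% (20.2 to 33.6) and 41.3% (40.2 to 42.5). At equal length X held 2.32% of naive and 1.59% of day 15 peaks, and 60.3% of its 252 naive peaks were shared (54.2 to 66.2), against 70.5% to 79.2% over the autosomes. Of its 173 day 15 peaks 97.1% overlapped the whole deposited naive list, against 84.1% to 90.9% over the autosomes. Regions matched 1 to 1 on X had a median move of -510 places at day 15 (95% interval of the median -987 to -3). The labels do not state the sex of the mice.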
